A study of Mus musculus with 24 samples.

Results

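Sema3g and 8 further genes of class 3 semaphorin signalling were followed in mouse kidney after myocardial infarction (MI): the ligands Sema3b, Sema3c, Sema3d and Sema3f, the co-receptors Nrp1 and Nrp2, and the receptors Plxna2 and Plxnd1. These 9 genes are 9 of the 56941 genes in the count table, and all 9 were among the 12780 genes with enough counts to be tested. The set was chosen by measured values, because Sema3g had stood out in the same data when 5d post-MI was set against sham, and the other 8 genes were added for their place in the pathway. The values of Sema3g are therefore given as a description without a test, while the other genes are given with theirs. The outcome of its test is stated only in the closing section, for its dependence on the settings, and is no evidence. Kidneys came from male C57BL/6J wildtype mice aged 8 to 11 weeks at surgery, which underwent a lasting tie of the left anterior descending (LAD) coronary artery, a model without reperfusion, or sham surgery without ligation. The groups were sham, collected 5d after surgery (8 kidneys), 5d post-MI (the 5d group, 8 of 9 labelled kidneys) and 28d post-MI (the 28d group, 6 of 7 labelled kidneys). The sham kidneys served as controls for both times, so that time after surgery and age cannot be told apart from LAD ligation at 28d post-MI.

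Class 3 semaphorins are secreted proteins that were first known for repelling growing axons and that also act on blood vessels. Most of them bind a neuropilin co-receptor, which has only a short part inside the cell and passes the signal on through a plexin of the A or D type. Sema3g binds Nrp2 and is known as a product of arterial endothelium and, in the kidney, of podocytes, the cells that form the outer face of the glomerular filter. Neuropilins also bind vascular endothelial growth factor (VEGF), so that both ligand families share a co-receptor, and furin-type convertases cut class 3 semaphorins and alter their activity.

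RNA was measured by Massive Analysis of cDNA Ends (MACE), which reads the 3′ ends of mRNA and marks molecules with unique molecular identifiers. Total counts were between 2280618 and 3786275 per kidney. Expression is given as counts scaled to a library of 1000000 (CPM) after TMM scaling, a factor per kidney that makes most genes equal on average. Since MACE reads 1 end of each molecule, counts were not divided by gene length. The libraries carried the nephron genes of a kidney, with the summed markers of the proximal tubule between 5483 and 7942 CPM. The markers of adrenal cortex, a tissue beside the kidney, had counts for 6 of 7 listed genes, with none found under the symbol Cyp11b2. They summed to 976 CPM in sham replicate 2 and 727 CPM in sham replicate 6. In 5d post-MI replicate 5 they summed to 85.2 CPM, and in the other kidneys to at most 4.27 CPM. Where leaving out these 2 sham kidneys moved a member's log2 fold change from sham by over 1.5 times or turned its sign, the value without them is also given.

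Sema3g (ENSMUSG00000021904, chromosome 14, 31217860 to 31230352 on the plus strand in the GENCODE M21 annotation of GRCm38, with no other annotated gene overlapping it) was lowest in sham kidneys. It ranged there from 17.4 to 29.2 CPM, with a median of 23.9 CPM. In the 5d group it ranged from 26.9 to 53.0 CPM, with a median of 42.1 CPM. In the 28d group the range was 25.6 to 45.5 CPM, with a median of 33.6 CPM. In 7 of 8 kidneys of the 5d group and 5 of 6 kidneys of the 28d group, the level was above that of every sham kidney. The exceptions were 5d post-MI replicate 1 and 28d post-MI replicate 3, which lay within the sham range, so the groups overlapped by 1 kidney each. In bulk tissue, more cells of a type and more RNA per cell cannot be told apart.

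**Figure D1:**
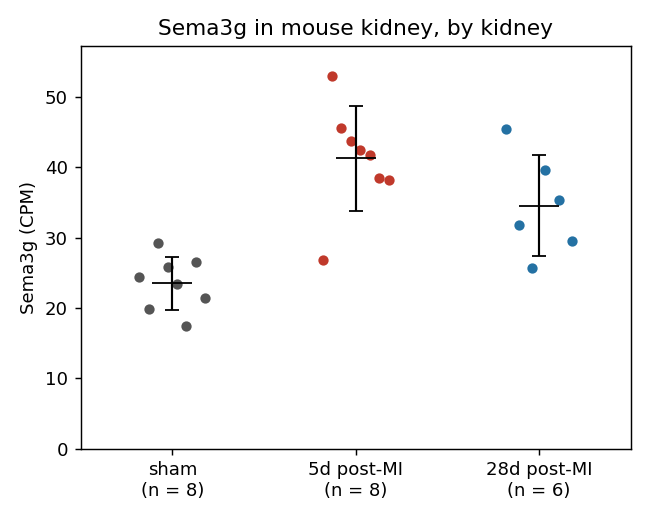
Sema3g expression (CPM, y axis) in each kidney of the sham, 5d post-MI and 28d post-MI groups (x axis); points are kidneys, the long bar is the group mean and the error bar its SD. Sham kidneys sit between 17.4 and 29.2 CPM, and 7 of 8 kidneys at 5d and 5 of 6 at 28d post-MI lie above them.

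The mean of Sema3g was 23.5 ± 3.81 CPM (SD, n = 8) in the sham group, 41.3 ± 7.45 CPM (SD, n = 8) in the 5d group and 34.6 ± 7.19 CPM (SD, n = 6) in the 28d group. As a fitted ratio, 5d post-MI stood at 1.76 times sham, which is 0.81 on the log2 scale with a standard error of 0.12. The level in the 28d group was 1.46 times sham, or 0.55 with a standard error of 0.13. In order, 5d post-MI was the highest, 28d post-MI the middle and sham the lowest group. The 2 post-MI groups are neighbours in this order whose difference of means was smaller than the SD of either, and their log2 difference (28d minus 5d) was −0.26 with a standard error of 0.12. The sham kidneys with the adrenal markers were also those with the lowest Sema3g, at 19.9 and 17.4 CPM. Without them the log2 difference from sham was 0.73 in the 5d and 0.46 in the 28d group, and the sham mean was 25.1 ± 2.71 CPM (SD, n = 6). The part that adrenal tissue had in the sham level was not tested.

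Counts of Sema3g were between 46 and 174 per kidney. In sham kidneys the coefficient of variation was 16.2%, against 11.7% from counting error alone at the mean count. In the 5d group it was 18.1% against 9.02%, and in the 28d group 20.8% against 10.4%. With all kidneys taken in, the spread was thus larger than counting error in all 3 groups. In the sham group this depended on the kidneys with adrenal markers, which had the lowest Sema3g. Without them the sham group was at 25.1 ± 2.71 CPM (SD, n = 6), and this SD is less than 11.7% of its mean. No spread beyond counting error is therefore shown for the sham group without those kidneys.

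Sema3g was also followed as a share of all class 3 semaphorin counts, taken over Sema3a to Sema3g. This share was 19.99% ± 2.92 (SD, n = 8) in the sham group, with a range from 16.1% to 24.2%. In the 5d group it was 29.5% ± 5.26 (SD, n = 8), from 22.2% to 38.4%, and in the 28d group 25.9% ± 4.54 (SD, n = 6), from 21.8% to 32.8%. The highest share, in 5d post-MI replicate 2, had a Wilson 95% interval of 34.0% to 43.0%, and the lowest, in sham replicate 6, one of 12.3% to 20.8%. These 2 kidneys are the extremes, picked as such, and the intervals cover counting error only, so they do not compare the groups. The interval of 5d post-MI replicate 1, which had the lowest share at 5d, was 18.1% to 26.9% and held the sham mean. The other 6 ligands together were at 94.0 ± 6.66 CPM (SD, n = 8) in the sham group, 98.6 ± 10.3 CPM (SD, n = 8) in the 5d group and 98.6 ± 7.69 CPM (SD, n = 6) in the 28d group.

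Of the 8 genes other than Sema3g, none passed an adjusted p-value under 0.05 in edgeR's quasi-likelihood test in the 5d group, where 0.0704% of all genes tested did. None passed in the 28d group, where 0.0235% of all genes did, and none between 28d and 5d post-MI, where 0.415% did. Unadjusted p-values were under 0.05 for 1 of 8 in the 5d group, for 0 of 8 in the 28d group and for 1 of 8 between the times. The shares over all genes tested were 7.9%, 8.68% and 9.05%, in this order, and in both comparisons the gene was Plxnd1. With DESeq2 and limma's voom on the same kidneys, as in edgeR, none of the 8 genes had an adjusted p-value under 0.05 in any of the 3 comparisons. The median log2 fold change of the 8 genes was −0.010 in the 5d group, 0.059 in the 28d group and 0.031 between the times, while that of all genes tested was 0.00018, −0.0012 and −0.0046.

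**Figure D2:**
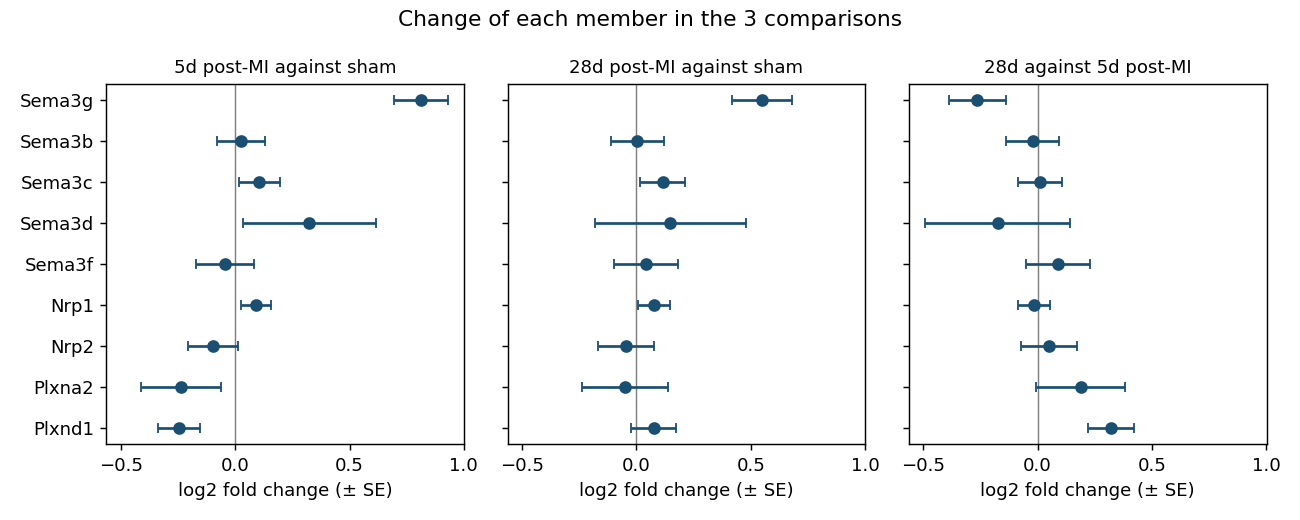
Log2 fold change (x axis, point) with its standard error (bar) of the 9 genes (y axis) in 3 panels, which set 5d post-MI and then 28d post-MI against sham, and last 28d against 5d. Sema3g lies at 0.81 and 0.55 in the comparisons with sham, which share the sham kidneys, and the other 8 genes lie between −0.25 and 0.32.

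Among the other ligands, Sema3b, which binds both neuropilins, was nearly level across the groups. Its CPM ran from 25.1 to 48.7 in sham kidneys (median 34.1), from 29.3 to 48.2 in the 5d group (median 34.4) and from 32.6 to 40.8 in the 28d group (median 34.1). All kidneys at both times after MI lay within the sham range. The log2 fold change was 0.026 in the 5d group, with a 95% interval from −0.19 to 0.24 (adjusted p = 0.975 from edgeR), and 0.0042 in the 28d group, with an interval from −0.23 to 0.24 (adjusted p = 0.998 from edgeR). Without the 2 sham kidneys with adrenal markers these were −0.018 and −0.043.

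Sema3c, a ligand of both neuropilins that is best known from the developing outflow tract of the heart, ran from 33.2 to 48.1 CPM in sham kidneys (median 38.8). It ran from 31.4 to 50.6 CPM in the 5d group (median 43.6) and from 36.6 to 48.3 CPM in the 28d group (median 42.8). The groups overlapped almost fully, with 1 kidney at each time above and 1 kidney of the 5d group below every sham kidney. Its log2 fold change was 0.10 in the 5d group (95% interval −0.077 to 0.29, adjusted p = 0.838 from edgeR) and 0.11 in the 28d group (95% interval −0.083 to 0.31, adjusted p = 0.809 from edgeR). Sham replicate 2, which carried the adrenal markers, had the highest sham level of Sema3c, and without both such kidneys 5 of 8 kidneys of the 5d and 4 of 6 of the 28d group were above every sham kidney. The log2 fold changes were then 0.16 in both groups, with adjusted p-values of 0.838 and 0.805 from edgeR.

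Sema3f, which binds Nrp2 and repels endothelial cells, ran from 11.2 to 18.6 CPM in sham kidneys (median 15.9), from 12.2 to 19.2 CPM in the 5d group (median 15.4) and from 12.1 to 20.4 CPM in the 28d group (median 16.8). In the 5d group the kidneys fell into a set of 4 between 12.2 and 13.1 CPM and a set of 4 between 17.7 and 19.2 CPM, and 2 of the higher set were above every sham kidney. This split was noticed after seeing the values, on 31 to 63 counts per kidney, and was not tested. The log2 fold change of Sema3f was −0.046 in the 5d group (95% interval −0.30 to 0.21, adjusted p = 0.962 from edgeR) and 0.042 in the 28d group (95% interval −0.24 to 0.32, adjusted p = 0.971 from edgeR). Sema3d, a ligand with roles in the developing heart and veins, was near the limit of detection with 2 to 16 counts per kidney. Its range was 1.33 to 4.17 CPM in sham kidneys, 1.30 to 4.88 CPM in the 5d group and 0.813 to 4.02 CPM in the 28d group. The log2 fold change of 0.32 in the 5d group had a 95% interval from −0.26 to 0.91 (adjusted p = 0.851 from edgeR), which is too wide to show a change of the size seen in Sema3g or its absence. Without the sham kidneys with adrenal markers, Sema3d was below the count filter and had no fitted value. In the GENCODE M21 annotation, Gm42909 on the same strand and Gm8925 on the other strand overlap Sema3d. Reads could be shared with Gm42909, and with Gm8925 if the authors' counting ignored the strand. The other class 3 ligands, Sema3a and Sema3e, had at most 6 and 8 counts in any kidney and were not tested. A count of 0, as Sema3a had in some kidneys, allows up to 3 counts.

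**Figure D3:**
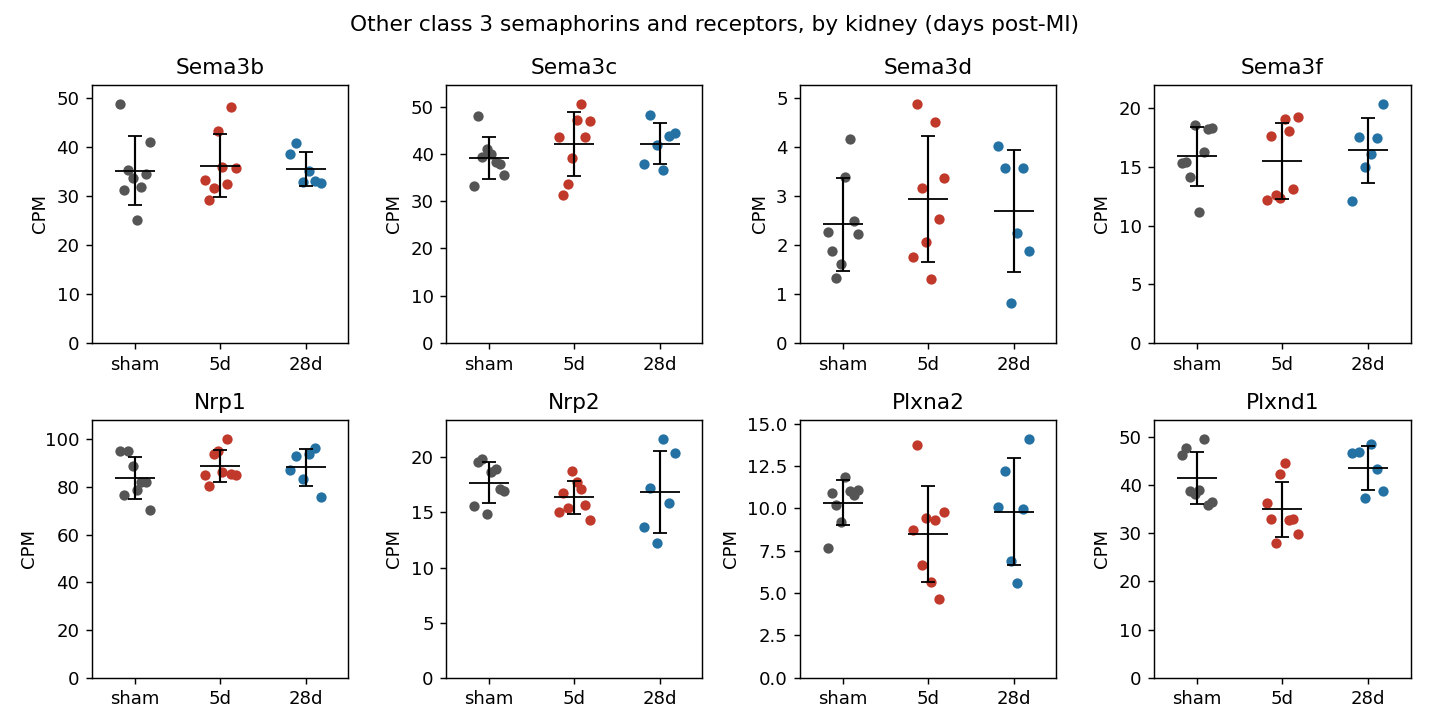
Expression (CPM, y axes from 0) of the 8 genes other than Sema3g in each kidney, by group (sham, 5d and 28d post-MI); points are kidneys, the long bar is the group mean and the error bar its SD. For Plxnd1, 5 of 8 kidneys at 5d post-MI lie below every sham kidney, and for the other genes at most 3 kidneys of a group lie below it.

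For neither co-receptor was a difference detectable beyond the spread between kidneys. Nrp1, a neuropilin of endothelium that also binds VEGF, ran from 70.4 to 95.0 CPM in sham kidneys (median 82.1), from 80.5 to 100.2 CPM in the 5d group (median 85.8) and from 75.9 to 96.1 CPM in the 28d group (median 90.0). Its log2 fold change of 0.091 in the 5d group had a standard error of 0.065, and the 95% interval from −0.040 to 0.22 corresponds to between 0.973 and 1.17 times sham (adjusted p = 0.792 from edgeR). In the 28d group the log2 fold change was 0.076 (95% interval −0.066 to 0.22, adjusted p = 0.832 from edgeR). Among the members, this was the most precisely measured gene, with 199 to 335 counts per kidney. The annotated gene Mir1903 overlaps Nrp1 on its own strand.

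Nrp2, the co-receptor that Sema3g and Sema3f bind, ran from 14.8 to 19.9 CPM in sham kidneys (median 17.9), from 14.4 to 18.8 CPM in the 5d group (median 16.2) and from 12.2 to 21.7 CPM in the 28d group (median 16.5). In the 28d group the kidneys were spread most, with 2 of 6 above and 2 of 6 below the whole sham range. Its log2 fold change was −0.097 in the 5d group (95% interval −0.32 to 0.13, adjusted p = 0.891 from edgeR) and −0.045 in the 28d group (95% interval −0.29 to 0.20, adjusted p = 0.963 from edgeR). Without the 2 sham kidneys with adrenal markers these were −0.051 and −0.0023. In sham kidneys the coefficient of variation of Nrp2 was 10.5%, less than the 13.6% from counting error at its mean count, and in the 28d group it was 21.99% against 14.8%. In the GENCODE M21 annotation, the antisense gene Gm29083 and the gene Gm37121 on its own strand overlap Nrp2. Since the strand setting of the authors' counting is not given in the sources used here, reads of Nrp2 and Gm29083 cannot be told apart. Gm37121 could share reads with Nrp2 under any strand setting.

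Of the receptors, Plxnd1 differed most between the groups, though not past the adjusted threshold. Plxnd1, a plexin of endothelium that pairs with neuropilins and also binds Sema3e directly, ran from 35.9 to 49.7 CPM in sham kidneys (median 38.9). In the 5d group it ran from 28.0 to 44.6 CPM (median 33.0), and in the 28d group from 37.4 to 48.6 CPM (median 45.0). In 5 of 8 kidneys of the 5d group, Plxnd1 was below its lowest sham level, while the 6 kidneys of the 28d group lay within the sham range, of which the top was set by the 2 sham kidneys with adrenal markers. The log2 fold change in the 5d group was −0.25 (95% interval −0.43 to −0.060), with an unadjusted p of 0.0109 and an adjusted p of 0.470 from edgeR. In the 28d group it was 0.076 (95% interval −0.12 to 0.27, adjusted p = 0.896 from edgeR). Between the times, Plxnd1 was higher at 28d than in the 5d group by 0.32 on the log2 scale (95% interval 0.12 to 0.52), with an unadjusted p of 0.00258 and an adjusted p of 0.197 from edgeR, and 6 of 6 kidneys at 28d were above the 5d mean. This comparison shares the 5d kidneys with the first. These kidneys, sham replicates 2 and 6, had the highest sham levels of Plxnd1, at 47.7 and 49.7 CPM, and without them 3 of 6 kidneys of the 28d group were above every sham kidney. The log2 fold change in the 5d group was then −0.16, with an unadjusted p of 0.0994 and an adjusted p of 0.834 from edgeR, and that in the 28d group was 0.16, with an adjusted p of 0.819 from edgeR.

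Plxna2, a plexin that signals for Sema3a and other class 3 ligands together with a neuropilin, was lower in count, with 11 to 45 counts per kidney. It ran from 7.65 to 11.9 CPM in sham kidneys (median 10.8), from 4.65 to 13.7 CPM in the 5d group (median 9.03) and from 5.61 to 14.1 CPM in the 28d group (median 9.996). The ranges were wider in both groups after MI, with 3 of 8 kidneys at 5d and 2 of 6 in the 28d group below every sham kidney, and 1 and 2 kidneys above. On the log2 scale the change was −0.24 in the 5d group (95% interval −0.59 to 0.11, adjusted p = 0.799 from edgeR) and −0.051 in the 28d group (95% interval −0.43 to 0.33, adjusted p = 0.976 from edgeR). The latter was −0.023 without the 2 sham kidneys with adrenal markers. The annotated genes Gm37783, Gm37674, Gm38036 and 2900035J10Rik overlap Plxna2 on its own strand and could share its reads.

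Between 28d and 5d post-MI, the remaining members had log2 differences (28d minus 5d) from −0.17 for Sema3d to 0.19 for Plxna2, with adjusted p-values of at least 0.850 from edgeR. Those of Sema3b, Sema3c and Nrp1 were −0.022, 0.0096 and −0.015. The standard errors of the 8 genes in this comparison ranged from 0.070 for Nrp1 to 0.32 for Sema3d.

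The wider pathway was taken as 65 genes, of which 47 had enough counts to be tested, and none of these passed the adjusted threshold in any comparison. Unadjusted p-values were under 0.05 for 4 of 47 genes in the 5d group (2 higher and 2 lower), for 3 of 47 in the 28d group (1 higher and 2 lower) and for 5 of 47 between the times (3 higher and 2 lower at 28d). These are 8.51%, 6.38% and 10.6% of the genes tested, near the shares of all genes given above. The 2 lower genes in the 5d group were Dpysl2 and Kdr. Without the 2 sham kidneys with adrenal markers, their unadjusted p-values were 0.158 and 0.0951 from edgeR. The median log2 fold change of the 47 genes was −0.030, 0.012 and 0.042 in this order. Of the 4 tested among 7 other plexins, none had an unadjusted p under 0.05. Plxna1, an A-type plexin of neuropilins, was at 20.05 ± 3.82 CPM (SD, n = 8) in the sham group, 17.4 ± 3.24 CPM (SD, n = 8) in the 5d group and 17.9 ± 3.62 CPM (SD, n = 6) in the 28d group, a log2 difference from sham of −0.22 in the 5d group (adjusted p = 0.703 from edgeR). Plxna4 was near 4 CPM or below on average, at 3.52 ± 1.26 CPM (SD, n = 8) in the sham group. Plxna3, at a mean of 1.35 CPM, was below the filter.

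Semaphorins of the other classes are mostly bound to the membrane and act without neuropilins, and 10 of 13 were tested. Sema7a, which is anchored in the membrane and binds integrins and Plxnc1, had the largest difference in the 5d group among them. It ran from 4.44 to 8.40 CPM in sham kidneys and from 6.62 to 13.4 CPM in the 5d group, with a mean of 5.88 ± 1.39 CPM (SD, n = 8) and 9.39 ± 2.58 CPM (SD, n = 8). Its log2 fold change was 0.70 (standard error 0.18), with an unadjusted p of 0.000392 and an adjusted p of 0.133 from edgeR, on 13 to 44 counts per kidney. Sema4b, a membrane semaphorin, was at 39.9 ± 2.71 CPM (SD, n = 8) in the sham group, 44.1 ± 6.43 CPM (SD, n = 8) in the 5d group and 33.6 ± 6.07 CPM (SD, n = 6) in the 28d group. Its log2 difference between 28d and 5d post-MI was −0.40 (95% interval −0.60 to −0.19, adjusted p = 0.0606 from edgeR), and −0.24 between 28d post-MI and sham (adjusted p = 0.479 from edgeR). Sema4a in the 28d group had a log2 difference from sham of −0.20 (adjusted p = 0.404 from edgeR), and Sema6a had one of 0.30 between the 28d and 5d groups (adjusted p = 0.486 from edgeR).

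Of the 31 genes that act with or below plexins, 23 were tested. Dpysl2, a collapsin response mediator that carries the semaphorin signal to microtubules, was at 57.4 ± 6.18 CPM (SD, n = 8) in the sham group, 50.0 ± 7.20 CPM (SD, n = 8) in the 5d group and 62.8 ± 8.65 CPM (SD, n = 6) in the 28d group. The difference between the times was 0.32 on the log2 scale (95% interval 0.13 to 0.51, adjusted p = 0.133 from edgeR), and that in the 5d group from sham was −0.19 (adjusted p = 0.587 from edgeR). L1cam, an adhesion molecule that associates with Nrp1, stood 0.30 above sham on the log2 scale in the 5d group (adjusted p = 0.581 from edgeR). For Mical1, an effector of plexins, no count was found under its symbol in the 22 kidneys. A true 0 and a symbol that was not matched cannot be told apart here. Of the VEGF genes, Kdr, the main VEGF receptor of endothelium, stood at −0.25 from sham on the log2 scale in the 5d group (adjusted p = 0.590 from edgeR). Vegfa, which tubules and podocytes produce, had a log2 difference of 0.16 in the 28d group from both sham (adjusted p = 0.531 from edgeR) and 5d post-MI (adjusted p = 0.468 from edgeR). The 4 convertases, Furin among them at 214 ± 12.6 CPM (SD, n = 8) in the sham group, had log2 fold changes between −0.086 and 0.14 in the 3 comparisons.

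Markers of the cell types that are known to make Sema3g did not share a direction, and none of their genes passed the adjusted threshold in the comparisons with sham. All 12 podocyte markers had counts, and their sum ran from 262 to 333 CPM in sham kidneys, from 290 to 391 CPM in the 5d group and from 276 to 340 CPM in the 28d group. Over all genes tested in the 5d group, 7.9% had an unadjusted p under 0.05 from edgeR. Of the 11 podocyte genes tested there, 3 had such a p-value, all higher, with a median log2 fold change of 0.22 over the list. Podxl and Npnt, the podocyte markers with the highest counts, were not among them. The sum of 15 endothelial markers ran from 620 to 756 CPM in sham kidneys, from 517 to 714 CPM in the 5d group and from 652 to 720 CPM in the 28d group. Of these genes 3 had an unadjusted p under 0.05 in the 5d group, all lower (Eng, Cdh5 and Kdr), with a median of −0.12 over the list. Without the 2 sham kidneys with adrenal markers, the unadjusted p of Kdr was 0.0951 from edgeR. For Eng and Cdh5 no such value is given here. The sum of 10 markers of arteries and descending vasa recta ran from 94.4 to 131 CPM in sham kidneys, from 88.2 to 128 CPM in the 5d group and from 102 to 118 CPM in the 28d group, and none of the 7 tested had such a p-value in any comparison. Pearson's r of Sema3g with a marker sum, both on the log2 scale, was taken over the 22 kidneys and after subtracting group means. It was 0.49 and 0.28 for podocytes, −0.32 and −0.047 for endothelium, and −0.26 and −0.17 for arteries and descending vasa recta. The part that the number of podocytes or endothelial cells had in the level of Sema3g was not tested.

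**Figure D4:**
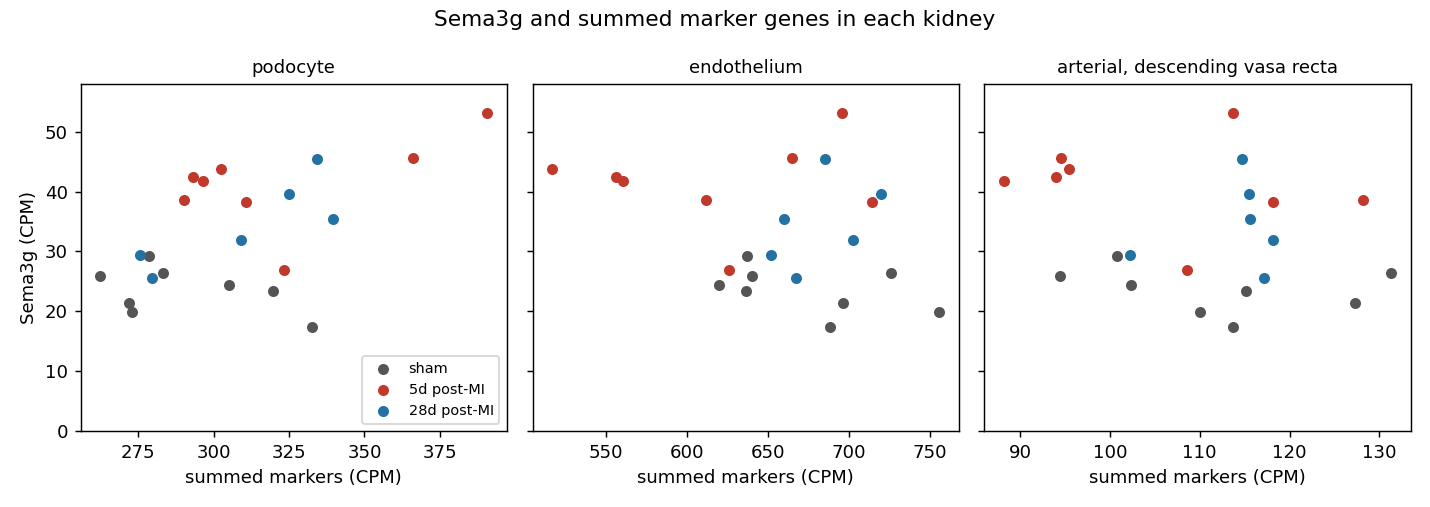
Sema3g (CPM, y axis from 0) against the summed markers (CPM, x axes, not from 0) of podocytes, endothelium, and arteries with descending vasa recta, 1 point per kidney, coloured by group. The 5d post-MI replicates 2 and 3, with the highest podocyte sums of 391 and 366 CPM, are also the kidneys at 5d with the highest Sema3g. Sham replicate 6, with the highest podocyte sum of the sham group (333 CPM), has the lowest Sema3g of all kidneys (17.4 CPM). The highest podocyte sum of the 28d group, 340 CPM in replicate 6, goes with 35.4 CPM of Sema3g, near the middle of that group. Over all 22 kidneys, Pearson's r of Sema3g with the podocyte sum was 0.49 on the log2 scale.

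Red blood cell genes rose in the 5d group, where 4 of the 4 tested passed the adjusted threshold from edgeR, against 0.0704% of all genes tested. Their adjusted p-values from edgeR were between 0.0356 and 0.0423. Without the sham kidneys with adrenal markers, and in several fits that left out a single kidney, none of them passed. The sum of 5 red blood cell genes ran from 2200 to 4124 CPM in sham kidneys and from 4968 to 19088.5 CPM in the 5d group, without overlap, and from 1795 to 5122 CPM in the 28d group. The 5d kidney with the highest red blood cell sum, replicate 6, had 42.4 CPM of Sema3g, close to the group median. Of 9 smooth muscle and pericyte genes in the 5d group, 5 were lower and 1 higher at an unadjusted p under 0.05, which 7.9% of all genes tested had. The higher gene was Ren1, which encodes renin, at 144 ± 35.4 CPM (SD, n = 8) in the sham group, 264 ± 78.3 CPM (SD, n = 8) at 5d and 119 ± 23.3 CPM (SD, n = 6) in the 28d group. Between 28d and 5d post-MI, Ren1 differed by −1.15 on the log2 scale (adjusted p = 0.00886 from edgeR). At 5d, Ren1 alone set the direction of the sum, which had medians of 377 CPM in sham kidneys, 449 CPM at 5d and 319 CPM in the 28d group. Without Ren1 the medians were 224, 203 and 193 CPM, so the 28d group was below sham either way. The sum without it ran from 216 to 255 CPM in sham kidneys, 177 to 222 CPM at 5d and 172 to 234 CPM in the 28d group. Adipocyte markers summed to between 154 and 1027 CPM in sham kidneys, 78.8 and 645 CPM at 5d and 171 and 461 CPM in the 28d group, and leukocyte markers to between 44.4 and 83.4 CPM over all kidneys. The sum of the thick ascending limb and collecting duct was between 1884 and 3229 CPM. Over all kidneys and after subtracting group means, r of Sema3g with the red blood cell sum was 0.48 and 0.10. It was 0.52 and 0.63 for smooth muscle and pericytes, and −0.26 and 0.49 for that sum without Ren1. For the thick ascending limb and collecting duct it was 0.48 and 0.39. Adipocytes had −0.41 and −0.31, and leukocytes −0.33 and −0.30. The part of these cells in the level of Sema3g was not tested.

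Across the 22 kidneys, Pigr, which encodes the receptor that carries immunoglobulins across epithelium, was among the tested genes that followed Sema3g most closely on the scale of log2 CPM, with r = 0.76 and Spearman's rho = 0.73. Because genes were ranked by this value and the groups differ in Sema3g, it is a description only, and it takes in the differences between groups as well as those within them. Without the 2 kidneys farthest from the median of Sema3g, sham replicate 6 and 5d post-MI replicate 2, r was 0.68. Within groups, r for Pigr was 0.56 in 8 sham kidneys, 0.87 in 8 kidneys at 5d and 0.70 in 6 kidneys of the 28d group. Pigr had means of 53.6 ± 11.2 CPM (SD, n = 8), 69.3 ± 17.5 CPM (SD, n = 8) and 71.6 ± 15.9 CPM (SD, n = 6) in sham, 5d and 28d post-MI kidneys. Also close in likeness were Slc2a1 with r = 0.74, a glucose transporter, Enpp1 with 0.73 and the membrane peptidase Mme with 0.71. The most opposed genes were Slc27a3 with −0.73, Acly with −0.72, which encodes an enzyme of fatty acid synthesis, and Cyb5b with −0.71. Over all 12780 genes tested, the middle 95% of r lay between −0.48 and 0.48.

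After the group means were subtracted, the genes most like Sema3g were Dguok (r = 0.77), Gm9130 (0.75), Cnppd1 (0.75), Pigr (0.73) and Pcgf5 (0.73), and the most opposed were Dact1 (−0.88), Plcl2 (−0.75) and Hspa4 (−0.74). Pigr was the 1 gene among the 5 most alike on both measures. The middle 95% of all genes then lay between −0.51 and 0.51. None of the pathway members was among these genes: Nrp1 had an r of 0.47 over all kidneys and 0.38 after the group means were subtracted, Nrp2 had −0.13 and 0.13, Plxnd1 −0.34 and −0.059, and Sema3c −0.060 and −0.44. The points share their library, and counting error of Sema3g enters each r.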

How the data were processed

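Kidneys of 24 mice are labelled, of which 8 were sham, 9 were taken at 5d and 7 at 28d post-MI. The authors trimmed MACE reads with Cutadapt, mapped them and counted genes with HTSeq, and deposited whole-number counts without normalization. The paper's methods name the build mm10, while the submitters' processing notes name mm39 and Bowtie2; the table has no coordinates, and those printed are from GENCODE M21. The deposited tpm values equal CPM, which the authors made from each kidney's total, within 5e-06; they were not divided by length. Of 48 value columns, 44 were used. The other 4 share a name between 2 kidneys and were left out, so 22 kidneys remained. Kidneys of a group were compared in 71 pairs, and chi-squared divided by its degrees of freedom ran from 1.77 to 8.1, above the sampling noise of a repeated library.

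Counts were kept by edgeR's filterByExpr (minimum count 10; 12780 of 30116 genes with a count), scaled by TMM and tested by edgeR's robust quasi-likelihood F test, two-sided, with 3 groups and no covariate (edgeR 4.0.16, limma 3.58.1, DESeq2 1.42.0, R 4.3.3, Python 3.11.15). Genes were called at a Benjamini-Hochberg adjusted p under 0.05 over all genes. The standard error was taken as the estimate over the root of F, and intervals are 95%. The scripts were tested on simulated data. Total counts of 2280618 to 3786275 per kidney limit precision for genes of few counts. Each label is taken as 1 mouse. The members, the pathway and marker lists and the tests were chosen with earlier results of these data known. Named were all members, pathway genes with an unadjusted p under 0.05 and 5 further pathway genes, marker sums, and genes with the 5 highest and 3 lowest r with Sema3g (log2 CPM, prior count 2); 1 gene under this rule is not reported here. The marker sum without Ren1 was chosen after seeing the data. Alternatives were DESeq2, limma's voom, other scalings, no filter, 2 groups at a time, a replicate block, each kidney left out, and no kidneys with adrenal markers over 100 CPM.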

Additional observations from a re-analysis of the deposited data

Results flagged for a closer look

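Sema7a was at 10.97 CPM (35 counts) in 28d post-MI replicate 7, far above the other 5 kidneys of that group, which lay between 5.61 and 6.84 CPM. It was the 1 value that stood apart by Dixon's test among 57 pairs of a gene and a group (19 genes in 3 groups), of which chance flags about 1 in 20. Without this kidney, the log2 difference of Sema7a between 28d and 5d post-MI was −0.61 in place of −0.41 (adjusted p = 0.285 and 0.532 from edgeR). None of the 9 members had such a value.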

How the results depend on the processing

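The log2 fold change of Sema3g kept its direction under all 30 alternatives, between 0.73 and 0.88 for 5d post-MI, 0.46 and 0.62 for 28d post-MI, and −0.35 and −0.19 between the times. None of the other 8 members passed the adjusted threshold under any alternative. The count of members past it rests wholly on Sema3g, which was chosen for its difference in these kidneys, so the count is no evidence and is given only for its dependence on the settings. At 5d post-MI it was 1, and 0 with a replicate block, where 2 of 12780 genes were called against 9 in the main fit. At 28d post-MI it was 0, and 1 with DESeq2, 1 with no filter on low counts and 1 with only the 2 groups of the contrast. Over all genes, 33 of 30116, 94 of 30116 and 31 of 12266 were called in these settings, in this order. The main fit called 3 of 12780 there. Pathway genes called rose from 0 to 1 at 5d post-MI with no filter (Sema7a). Between the times they rose from 0 to 2 with no filter (Sema4b and Dpysl2), to 1 with total counts in place of TMM (Sema4b) and to 1 with the block (Dpysl2), and they were between 0 and 1 with each kidney left out, with Sema4b called without 5d replicate 1 or 28d replicate 6, and Dpysl2 without 5d replicate 9 or 28d replicate 7. Over all genes at 5d post-MI, 80 of 30116 were called with no filter, against 9 of 12780 in the main fit. Between the times the main fit called 53 of 12780. That number was 160 of 30116 with no filter, 51 of 12780 with total counts and 80 of 12780 with the block. Without 5d replicate 1, 28d replicate 6, 5d replicate 9 and 28d replicate 7 it was 84, 55, 72 and 52. The cause was not tested.

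Signs changed for 9 of the 24 log2 fold changes of the other members, all near 0. Sema3b at 5d post-MI was −0.018 without kidneys with adrenal markers and between −0.037 and 0.11 with each kidney left out. Sema3b at 28d post-MI was −0.0361 with total counts, −0.043 without the adrenal kidneys and between −0.053 and 0.090 with each left out. With the block, Sema3f at 28d post-MI was −0.016 and Sema3b between the times 0.034. Sema3c between the times was −0.018 with total counts. With each kidney left out, the ranges were −0.037 to 0.11 for Sema3f, −0.13 to 0.028 for Nrp2 and −0.20 to 0.069 for Plxna2 at 28d post-MI, and −0.066 to 0.042 for Sema3b, −0.045 to 0.055 for Sema3c, −0.040 to 0.023 for Nrp1 and −0.030 to 0.13 for Nrp2 between the times. Sema3d fell below the count filter in 5 of the alternatives. Over all genes, kidneys with the same replicate number did not deviate together (r from −0.127 to 0.0899 over 18 pairs). Kidneys of different numbers were not compared in this way. An r over all genes cannot exclude a shared batch that touches only some genes. Depth limited Sema3d, Sema3a, Sema3e and Plxna3 most.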
